A study of Homo sapiens with 6 samples.

Results

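The 8 genes described here encode proteins that detect or act on RNA in the cytosol: DDX58 (RIG-I), IFIH1 (MDA5), DHX58 (LGP2), DDX60, MAVS, EIF2AK2 (PKR), ADAR and ZC3HAV1 (ZAP). They were found by symbol in the deposited table of 19755 protein-coding genes, and each symbol had 1 gene identifier. RNA-seq had been run on 3 control libraries and on 3 libraries of cells treated for 12 h with 1000 ng/ml LPS (lipopolysaccharide, a glycolipid of the bacterial outer membrane). The labelled line is EA.hy926, an established hybrid of an umbilical vein endothelial cell and the lung carcinoma line A549, but the titles also name umbilical vein endothelial cells. Both groups grew in DMEM with 10% fetal bovine serum. The controls are labelled wild type and 12 h with no vehicle named, the genotype field of the LPS libraries reads LPS-induced, and the treatment field reads sepsis for all 6, so groups were taken from the titles. The labels do not say whether the libraries of a group are separate cultures, and each p-value therefore reflects library-to-library spread that may be technical.

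RIG-I and MDA5 are helicases that bind viral or other double-stranded RNA and then engage MAVS, an adaptor on the mitochondrial membrane, from which kinases activate the factors that induce type I interferon. LGP2 is a relative without the signalling domains that modulates both helicases. PKR, ADAR and ZAP act on RNA or translation instead: PKR phosphorylates the initiation factor eIF2alpha, ADAR edits adenosine to inosine in double-stranded RNA, and ZAP binds CpG-rich RNA and promotes its decay. Most of these genes are known to be induced by interferon, which feeds back on the pathway. In endothelium, LPS is sensed by TLR4, whose adaptor TICAM1 (TRIF) can also lead to interferon induction.

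Interferon acts on promoters through repeats of GAAA, and short stretches holding such a repeat are shown here because they begin upstream of the annotated start of 4 of the 8 genes. Promoter windows of 300 bases around annotated starts were taken from RefSeq (GRCh38.p14) and matched 7 of the 8 genes, all but DHX58. Capitals mark the match to GAAANNGAAA or, for DDX58, to GAAANGAAA. Each stretch is written in the direction of transcription of its gene.

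IFIH1: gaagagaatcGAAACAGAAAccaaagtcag

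EIF2AK2: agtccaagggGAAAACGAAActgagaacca

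DDX60, distal: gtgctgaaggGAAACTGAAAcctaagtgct

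DDX60, proximal: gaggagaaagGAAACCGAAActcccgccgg

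DDX58: ggtgcggaggGAAACGAAActagcccgag

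The stretch of IFIH1 is chr2:162318686-162318715 and its match begins 21 bases upstream of the RefSeq start. In EIF2AK2 (chr2:37156967-37156996) the match begins 6 bases upstream. The DDX60 matches begin 88 bases (chr4:168318821-168318850) and 53 bases (chr4:168318786-168318815) upstream, and that of DDX58 (chr9:32526381-32526409) begins 203 bases upstream. All 4 genes lie on the minus strand. On either strand, GAAANNGAAA was found for 3 of the 7 matched genes and for 4.38% of all 27305 genes with a window (3.57% of 35116 windows, as a gene can have several). GAAANGAAA was found for 2 of the 7 genes and for 3.87% of all genes (3.12% of windows). This motif was chosen after its sequence was seen, so its count only describes these genes and cannot be weighed against that share. The second motif match in DDX60 overlaps the proximal one, and IFIH1 has 2 further, overlapping matches on the opposite strand. The windows of MAVS, ADAR and ZC3HAV1 hold neither motif. No ADAR window covers the starts of its transcripts ADAR-208 (154608170) and ADAR-202 (154608186), as the nearest window begins at 154608748. The sequence at those starts was therefore not searched. The palindrome TTCNNNGAA, the core of sites bound by STAT dimers, was found for ZC3HAV1 and DDX60, 2 of the 7 genes, and for 9.38% of all genes (7.66% of windows). A match is a run of letters and not a measured binding site.

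All 8 genes had higher mean levels in the LPS libraries and positive log2 changes, beside 47.8% of all tested genes with a positive change. The 8 genes ran from 0.08 (ZC3HAV1) to 0.75 (MAVS) in log2 change. None passed the threshold of an adjusted p under 0.05 in limma's test across 12068 protein-coding genes (Benjamini-Hochberg adjustment over all of them), which 0.0580% of all tested genes did (0.0414% as higher with LPS). The lowest adjusted p among them was 0.173. At an unadjusted p under 0.05 there were 3 of the 8, DDX58, DDX60 and MAVS, all higher with LPS, beside 5.13% of all tested genes higher and 10.4% in either direction. The 3 LPS values lay above the 3 control values without overlap in 4 of the 8 (the same 3 and EIF2AK2), beside 8.68% of all tested genes, and below them in 0 of the 8, beside 8.73%. The median log2 change of the 8 genes was 0.52, and that of all tested genes was −0.01. Log2 changes throughout are differences of mean log2(FPKM + 0.5), where FPKM is a fragment count scaled by transcript length and library size, and they understate changes of low genes.

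**Figure D1:**
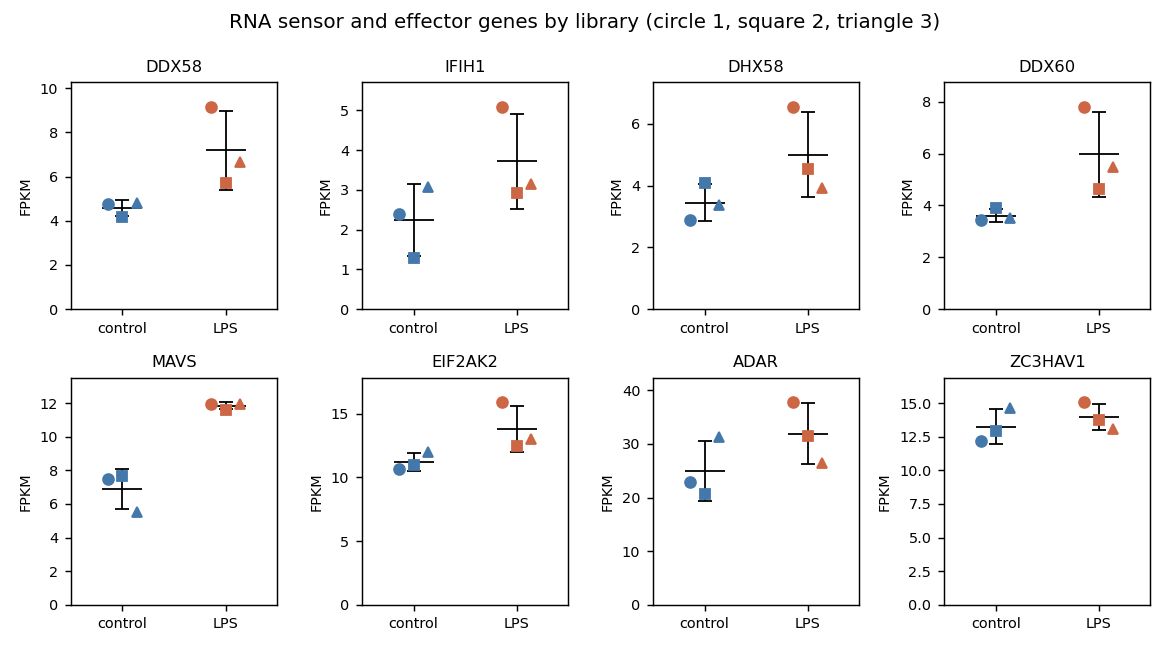
FPKM of the 8 genes in each library, with controls in blue and LPS in orange; symbols give the replicate number, the horizontal bar the mean and the whiskers the SD of 3 libraries. LPS 1 is the highest library in 7 of the 8 panels, and the MAVS panel shows 3 LPS values close together above the controls.

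Since FPKM is scaled to length, levels can be ordered between genes. In controls ADAR was the most abundant at 24.9 ± 5.55 FPKM (mean ± SD, n = 3), then ZC3HAV1 (13.3 ± 1.29), EIF2AK2 (11.2 ± 0.684), MAVS (6.88 ± 1.17), DDX58 (4.58 ± 0.357), DDX60 (3.61 ± 0.241), DHX58 (3.45 ± 0.598) and IFIH1 (2.25 ± 0.906). Neighbours in that order did not overlap between libraries, except DDX60 with DHX58 and DHX58 with IFIH1. With LPS the order of the means was the same, and the ranges overlapped for EIF2AK2 (13.8 ± 1.83) with ZC3HAV1 (13.98 ± 0.991) and for each neighbouring pair among the 4 helicases. ADAR lay above 87.9% of tested genes in mean level and IFIH1 above 27.1%.

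Among the RNA helicases, DDX58, the sensor of short double-stranded RNA with a triphosphate end, stood at 4.77, 4.17 and 4.80 FPKM in the controls and at 9.16, 5.71 and 6.66 FPKM in the LPS libraries. The groups did not overlap, and LPS 1 was the highest library. Its mean was 1.57 times higher with LPS (log2 change 0.57, SE 0.18, 95% interval 0.16 to 0.99, limma adjusted p = 0.35). The gene lies on chromosome 9, positions 32455302 to 32526208 of GRCh38.

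IFIH1, the sensor of long double-stranded RNA, stood at 2.39, 1.28 and 3.08 FPKM in the controls, against 5.09, 2.92 and 3.14 FPKM after LPS. Control 3 lay above LPS 2, so the groups overlapped, and control 2 was the lowest library. The log2 change was 0.64 (SE 0.30) with a 95% interval from −0.05 to 1.33 (limma adjusted p = 0.507). Without control 2 it was 0.36, and without control 3 it was 0.86. On the deposited coordinates IFIH1 spans chromosome 2 positions 162267074 to 162318684.

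DHX58, the modulator LGP2, stood at 2.88, 4.07 and 3.38 FPKM in the controls, against 6.55, 4.53 and 3.93 FPKM after LPS. LPS 3 lay within the control range, between controls 2 and 3. The log2 change was 0.46 (SE 0.21, 95% interval −0.02 to 0.94, limma adjusted p = 0.494). DHX58 lies on chromosome 17 at positions 42101404 to 42112714.

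DDX60, a large helicase described as a cofactor of RIG-I-like receptors, stood at 3.43, 3.88 and 3.51 FPKM in the controls, against 7.81, 4.62 and 5.48 FPKM after LPS. The control values were tight and all lay below the LPS values. The mean was 1.66 times higher with LPS (log2 change 0.63, SE 0.19, 95% interval 0.19 to 1.07, limma adjusted p = 0.339). Its paralog DDX60L stood at 7.09 ± 1.47 FPKM in controls and 8.08 ± 1.02 FPKM with LPS (n = 3 each; log2 change 0.19, limma adjusted p = 0.745), with overlapping groups. DDX60 lies on chromosome 4 at positions 168216294 to 168318804. Fragments shared with the paralog make both levels uncertain, since the handling of multiply aligned fragments was not given.

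MAVS, the adaptor that both sensors signal through, stood at 7.46, 7.66 and 5.53 FPKM in the controls, against 11.9, 11.6 and 12.0 FPKM after LPS. The LPS values were the most alike of any of the 8 genes, with an SD of 0.205 FPKM, and control 3 was the lowest library. The mean was 1.72 times higher with LPS (log2 change 0.75, SE 0.14, 95% interval 0.42 to 1.08, limma adjusted p = 0.173). Of all tested genes, 0.489% had a smaller p. MAVS is the only 1 of the 8 on the plus strand, at chromosome 20 positions 3846799 to 3876123.

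EIF2AK2, the kinase PKR, stood at 10.7, 10.96 and 12.0 FPKM in the controls, against 15.9, 12.5 and 13.0 FPKM after LPS. The groups did not overlap, but control 3 and LPS 2 were separated by little. The log2 change was 0.28 (SE 0.12, 95% interval −0.01 to 0.57, limma adjusted p = 0.492). EIF2AK2 (chromosome 2, positions 37099210 to 37157065) overlaps the 3′ end of GPATCH11 on the opposite strand, and GPATCH11 stood between 1.46 and 1.70 FPKM in all libraries. Without strand information, reads from the overlap cannot be told apart.

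ADAR, the adenosine deaminase, stood at 22.8, 20.7 and 31.2 FPKM in the controls, against 37.7, 31.5 and 26.4 FPKM after LPS. Control 3 was above LPS 3, and the log2 change was 0.36 (SE 0.19, 95% interval −0.08 to 0.79, limma adjusted p = 0.547). The log2 change was 0.24 without control 2 and 0.53 without control 3. It is located on chromosome 1 at positions 154582057 to 154628013.

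ZC3HAV1, the zinc finger protein ZAP, stood at 12.2, 12.9 and 14.7 FPKM in the controls, against 15.1, 13.8 and 13.1 FPKM after LPS. The groups overlapped widely, and this gene had the smallest change of the 8 (log2 change 0.08, SE 0.11, 95% interval −0.19 to 0.34, limma adjusted p = 0.848). Leaving out 1 library at a time moved it between 0.02 (without control 1 or LPS 1) and 0.15 (without control 3), and to 0.12 without LPS 3. ZC3HAV1 spans chromosome 7 positions 139043515 to 139109720 and contains a processed pseudogene of at most 0.129 FPKM.

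**Figure D2:**
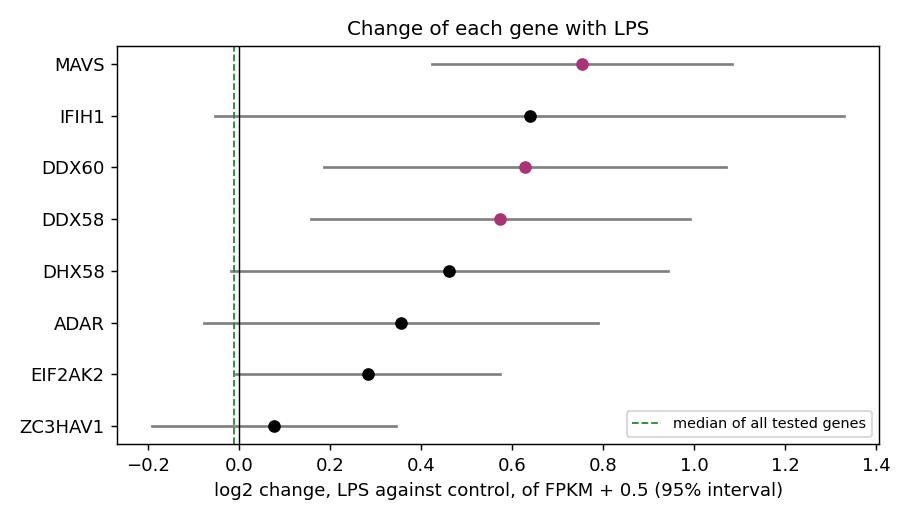
Log2 change of FPKM + 0.5 for each of the 8 genes (points, LPS against control) with 95% intervals from limma; purple marks an unadjusted p under 0.05 and the dashed line the median of all tested genes. MAVS (0.75) is the highest, ZC3HAV1 (0.08) the lowest, and the intervals of 5 genes include 0.

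LPS 1 stood apart from the other LPS libraries for these genes. Relative to the control mean, LPS 1 had a median log2 difference over the 8 genes of 0.81, beside 0.34 for both LPS 2 and LPS 3, while the median over all tested genes lay between −0.05 and 0.05 in every library. LPS 1 was the highest of all 6 libraries for 7 of the 8 genes, beside 14.1% of all tested genes, and MAVS was highest in LPS 3. Without LPS 1 all 8 log2 changes were still positive. They were then 0.75 for MAVS, 0.43 for DDX60, 0.40 for DDX58, 0.42 for IFIH1, 0.27 for DHX58, 0.23 for ADAR, 0.18 for EIF2AK2 and 0.02 for ZC3HAV1. DDX58, DDX60 and MAVS were again at an unadjusted p under 0.05 by limma (adjusted p = 0.562, 0.553 and 0.342), beside 8.61% of all tested genes in either direction. None of the 8 passed the adjustment. Leaving out control 3 or LPS 3 gave 5 of the 8 at that unadjusted level instead of 3, beside 7.59% and 10.1% of all tested genes.

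The deposited transcript tables split each gene into annotated and assembled transcripts, and 59 transcripts belonged to the 8 genes. Of these, 33 were in the table of protein-coding transcripts and 19 in the table of transcripts the authors classed as long noncoding. Among the 33, 19 reached a mean of 0.5 FPKM and were tested by limma with the 20563 transcripts of that level. None passed an adjusted p under 0.05, which 0.126% of all tested transcripts did (0.0535% as higher), and the lowest adjusted p was 0.583. At an unadjusted p under 0.05 there were 6 higher and 0 lower with LPS, beside 3.24% of all tested transcripts higher and 6.44% in either direction. The same number, 6, lay above the controls without overlap, beside 6.69% of all, and 1 (ADAR-213) lay below them, beside 7.07%. The count at an unadjusted p under 0.05 was 2 without control 3, 2 without LPS 1, 3 without control 2, 3 without LPS 3, and 4 without control 1 or without LPS 2. Transcript names are those of the deposited tables, which differ from GENCODE 29 for some transcripts of ADAR and IFIH1, and protein lengths come from GENCODE 29, matched by identifier. Fragments in exons that transcripts share cannot be assigned to 1 of them directly, so transcript levels are estimates.

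The 6 transcripts each came from a different gene. DDX58-202, which encodes RIG-I of 925 residues, made up at least 89.5% of the gene's FPKM in each library and stood at 4.77, 3.73 and 4.80 FPKM in controls and 8.47, 5.25 and 6.66 FPKM with LPS (limma adjusted p = 0.741). DDX60-201 (1712 residues) stood at 3.34 ± 0.215 FPKM in controls and 5.68 ± 1.74 FPKM with LPS (n = 3 each, limma adjusted p = 0.735). EIF2AK2-201 (551 residues) was at 8.79, 8.90 and 8.84 FPKM in the controls, against 14.3, 10.9 and 10.7 FPKM after LPS. The 3 controls were nearly alike and all below the LPS values (log2 change 0.40, SE 0.15, limma adjusted p = 0.741), beside a log2 change of 0.28 for the whole gene.

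For IFIH1 the groups separated in the transcript with the full reading frame, though not in the gene's total. IFIH1-206, which encodes MDA5 of 1025 residues, stood at 1.04, 0.986 and 0.784 FPKM in the controls, against 2.75, 1.83 and 1.85 FPKM after LPS, without overlap. Its mean was 2.29 times higher with LPS (log2 change 0.87, SE 0.23, 95% interval 0.29 to 1.44, limma adjusted p = 0.583). IFIH1-201, a transcript of 2 exons with a reading frame of 221 residues, stood at 1.28, 0.259 and 2.18 FPKM in the controls, against 2.28, 0.888 and 1.19 FPKM after LPS, and these ranges overlapped. Among the controls this short transcript varied more than IFIH1-206.

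DHX58-201, which encodes LGP2 of 678 residues, stood at 0.689, 1.65 and 1.25 FPKM in the controls, against 2.31, 2.28 and 2.23 FPKM after LPS. The LPS values were close together and above all controls (log2 change 0.75, SE 0.27, limma adjusted p = 0.74). DHX58-202 and DHX58-203, whose coding sequences are incomplete in the annotation, had overlapping groups at 1.21 ± 0.353 and 1.001 ± 0.388 FPKM (DHX58-202) and at 0.137 ± 0.237 and 1.05 ± 0.802 FPKM (DHX58-203) in control and LPS libraries (n = 3 each).

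MAVS has 2 transcripts in the tables. MAVS-202, which encodes the protein of 540 residues, stood at 7.17, 7.46 and 4.12 FPKM in the controls, against 8.75, 11.1 and 10.4 FPKM after LPS, without overlap (log2 change 0.68, SE 0.25, limma adjusted p = 0.741). MAVS-201 (399 residues) stood at 0.287, 0.202 and 1.42 FPKM in the controls, against 3.19, 0.532 and 1.59 FPKM after LPS, with overlapping groups. LPS 1 had the most MAVS-201 and the least MAVS-202 of the LPS libraries, while the gene totals were alike.

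**Figure D3:**
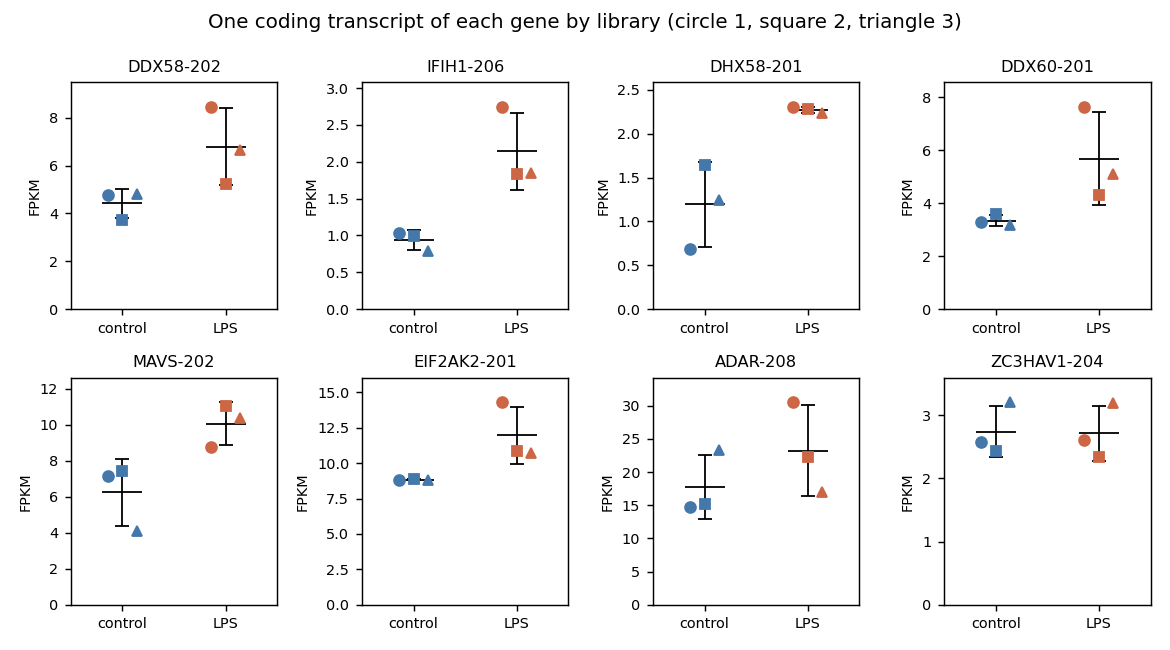
FPKM by library of a coding transcript of each gene, drawn as in the plot of gene levels, with means and SD of 3 libraries per group. The LPS values lie above the controls without overlap for DDX58-202, IFIH1-206, DHX58-201, DDX60-201, MAVS-202 and EIF2AK2-201, and overlap the controls for ADAR-208 and ZC3HAV1-204.

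ADAR is known to be made in a long form from an interferon-inducible promoter, called p150, and a short constitutive form, p110. Most ADAR FPKM was assigned to ADAR-208, whose product has 1200 residues and whose start at position 154608170 lies beside that of the transcript for the product of 1226 residues, ADAR-202 (154608186). These 2 transcripts together stood at 15.1, 15.5 and 24.0 FPKM in the controls, against 33.8, 23.1 and 17.1 FPKM after LPS. Their share of the gene was 66.3%, 74.6% and 76.8% in controls and 89.6%, 73.5% and 64.8% with LPS, so the groups overlapped in level and in share. The 6 transcripts for a product of 931 residues summed to 3.08, 1.97 and 3.55 FPKM in controls and 0.223, 6.71 and 3.05 FPKM with LPS. Within that class the assignment differed between libraries. ADAR-221, whose annotated start at 154608797 lies nearer to that of ADAR-208 than to that of ADAR-201 (154627968), was at 5.76 FPKM in LPS 2 and 2.57 FPKM in LPS 3 but at 0.000231 FPKM in control 2 and listed at 0 in the other 3 libraries. ADAR-213 stood at 0.00463, 0.605 and 2.87 FPKM in controls and was listed at 0 in all LPS libraries (limma adjusted p = 0.783). ADAR-217, whose coding sequence is incomplete in the annotation, stood at 2.88, 1.17 and 0 FPKM in the controls, against 2.03, 0 and 3.92 FPKM after LPS. ADAR-201 overlapped as well, at 1.42 ± 1.43 FPKM in controls and 0.533 ± 0.373 FPKM with LPS (n = 3 each).

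ZC3HAV1 is known in a long form with an inactive PARP-like domain and a shorter form without it, which interferon induces in other cells. The transcript of the long form, ZC3HAV1-201 (902 residues), stood at 3.71 ± 0.252 FPKM in controls and 3.76 ± 0.891 FPKM with LPS (n = 3 each). For the short form, ZC3HAV1-204 (699 residues), the values were 2.58, 2.43 and 3.20 FPKM in controls and 2.61, 2.34 and 3.19 FPKM with LPS. Those 2 sets nearly coincide (log2 change −0.01, SE 0.19, 95% interval −0.49 to 0.47). ZC3HAV1-203 (1024 residues) was the most abundant at 6.64 ± 0.871 and 7.28 ± 2.01 FPKM (controls, then LPS, n = 3 each).

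Transcripts outside the protein-coding table were low for all 8 genes, with means over all 6 libraries of at most 0.991 FPKM, and were not tested. In EIF2AK2, the retained intron transcript EIF2AK2-206 stood at 0.509, 0.341 and 0.819 FPKM in the controls, against 1.45, 1.504 and 1.32 FPKM after LPS. An assembled transcript at the start of the gene, chromosome 2 positions 37134836 to 37157065, stood at 0.710, 0.486 and 1.54 FPKM in controls, 0.0668 FPKM in LPS 3 and was listed at 0 in LPS 1 and LPS 2. The LPS values of the first lay above its controls and those of the second below. The assembled transcript had a mean over all libraries of 0.468 FPKM. ADAR-203 and ADAR-206, which like EIF2AK2-206 reached a mean of 0.5 FPKM, had overlapping groups. At means of 0.0477 and 0.0158 FPKM, IFIH1-202 (higher with LPS) and DHX58-206 (lower) did not overlap either. The share of such separation over all transcripts outside the protein-coding table was not computed.

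Of 115 other genes of the pathway, drawn up in 8 lists, 91 were tested. By limma 0 passed the adjusted threshold, and at an unadjusted p under 0.05 there were 7 higher and 2 lower with LPS, beside 5.13% of all tested genes higher and 5.26% lower. Their median log2 change was −0.01, as for all tested genes, beside 0.52 for the 8 sensors and effectors. The 9 of 91 became 13 of 113 when low genes were not filtered (beside 8.44% of all tested genes). With the filter, the count became 13 without LPS 3 (10.1%) and 6 without LPS 1 (8.61%).

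Among 16 tested cofactors of RIG-I-like receptors, 0 were at an unadjusted p under 0.05 (limma adjusted calls 0) and the median log2 change was −0.02. TRIM25, a ubiquitin ligase that acts on RIG-I and with ZAP, stood at 14.04 ± 2.73 FPKM in controls and 14.5 ± 0.328 FPKM with LPS. RNF135, a further ligase for RIG-I, stood at 5.46 ± 1.84 and 5.30 ± 1.03 FPKM (n = 3 each). The most abundant, the adaptor YWHAE, stood at 105 ± 21.2 and 124 ± 7.41 FPKM (controls, then LPS).

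Of 20 tested genes of MAVS signalling and of interferon induction more broadly, 3 were higher and 1 lower at an unadjusted p under 0.05 by limma. IRF7, the interferon regulatory factor that is itself interferon-inducible, stood at 2.84, 3.81 and 2.96 FPKM in the controls, against 7.19, 5.31 and 6.41 FPKM after LPS. All LPS values were above the controls (log2 change 0.88, SE 0.16, limma adjusted p = 0.173). TICAM1, the adaptor of TLR3 and TLR4, stood at 6.33 ± 0.705 FPKM in controls and 8.82 ± 0.442 FPKM with LPS (limma adjusted p = 0.305). RIPK1, a kinase that binds TICAM1, stood at 7.02 ± 0.319 FPKM in the controls and at 8.47 ± 0.0431 FPKM after LPS (limma adjusted p = 0.457). The 1 lower gene, the protease CASP8, stood at 6.36 ± 0.410 and 4.71 ± 0.786 FPKM (limma adjusted p = 0.402). IRF3, the constitutive partner of IRF7 and the most abundant gene of the list, stood at 15.0 ± 1.18 and 16.0 ± 1.80 FPKM, with overlapping groups. The kinase TBK1 stood at 3.88 to 5.32 FPKM in controls and 3.90 to 5.03 FPKM with LPS.

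Of 20 tested negative regulators, 1 was higher and 1 lower at an unadjusted p under 0.05. ITCH, a ligase that directs MAVS to degradation, stood at 16.6, 22.7 and 23.8 FPKM in the controls, against 12.0, 11.5 and 16.3 FPKM after LPS. The groups did not overlap, but control 1 and LPS 3 were close (log2 change −0.65, SE 0.18, limma adjusted p = 0.326). TNFAIP3 (A20) stood at 20.3 ± 2.76 and 27.4 ± 6.12 FPKM (limma adjusted p = 0.477). The proteasome subunit PSMA7, the most abundant of the list, stood at 94.5 ± 4.84 and 95.1 ± 3.21 FPKM.

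In the arms of the effectors, 0 of 12 PKR and eIF2alpha genes and 0 of 2 tested ADAR relatives were at an unadjusted p under 0.05 by limma, and 0 passed the adjustment. ATF4, whose translation rises when eIF2alpha is phosphorylated, stood at 151 ± 14.5 FPKM in controls and 172 ± 40.7 FPKM with LPS. The editing enzyme ADARB1 stood at 6.05 ± 1.32 and 7.35 ± 0.411 FPKM. Among 16 ZAP cofactors and PARP relatives 1 was higher at an unadjusted p under 0.05, PARP12, at 8.91 ± 1.90 and 13.0 ± 2.46 FPKM (limma adjusted p = 0.403, groups overlapping). The helicase DDX17 was the most abundant of them at 79.2 ± 20.1 and 80.1 ± 5.47 FPKM.

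The oligoadenylate synthetases, which sense double-stranded RNA and activate RNase L, had larger estimated log2 changes for OAS2 and OAS3 than any of the 8 genes. OAS3 stood at 3.36, 3.61 and 3.29 FPKM in the controls, against 15.1, 9.13 and 8.94 FPKM after LPS (log2 change 1.52, SE 0.20, limma adjusted p = 0.0967). OAS2 stood at 2.65, 2.59 and 2.27 FPKM in the controls, against 13.8, 6.70 and 7.39 FPKM after LPS (log2 change 1.64, SE 0.25, limma adjusted p = 0.151). In both genes LPS 1 was the highest library. OAS1 was not found by symbol, and OASL fell below the level for testing. The low values of OASL were 0.0541, 0.0453 and 0.0163 FPKM in controls and 1.07, 0.481 and 0.575 FPKM with LPS, without overlap. ABCE1, the inhibitor of RNase L and the most abundant gene of this list of 5 tested, stood at 17.6 ± 1.22 and 16.5 ± 0.402 FPKM.

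Interferon ligands were at or near 0 at the time of harvest. Of 15 listed, 0 reached the level for testing and 12 were listed at 0 in all 6 libraries, among them IFNL1, IFNL2, IFNL3 and IFNG. IFNB1 was listed at 0.0633 FPKM in LPS 1 and at 0 elsewhere. IFNA5 was at 0.0597 FPKM in LPS 2 and at 0 elsewhere, and IFNE stood at 0.137 to 0.705 FPKM in controls and 0.141 to 0.451 FPKM with LPS.

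**Figure D4:**
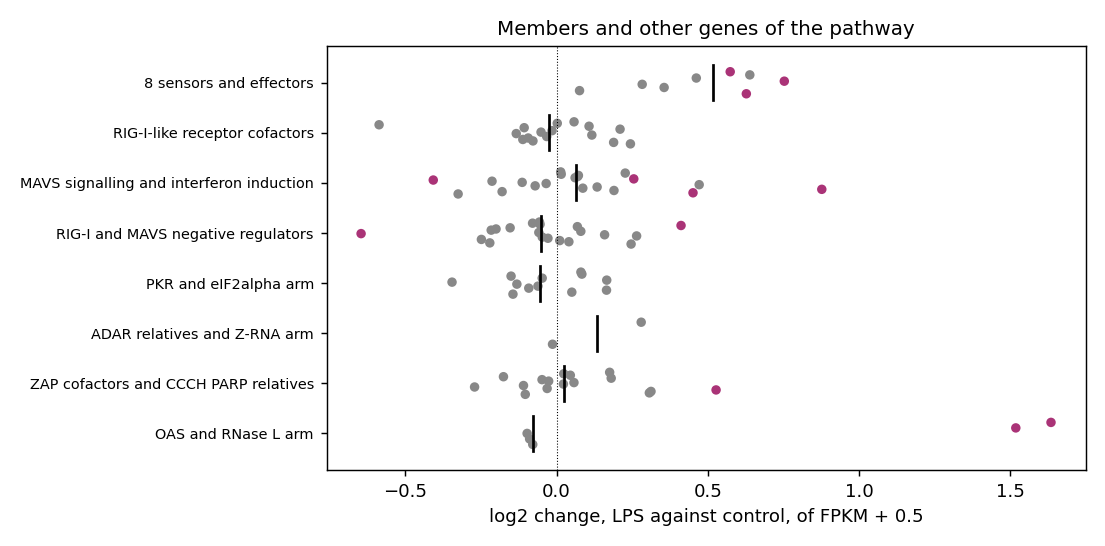
Log2 change of FPKM + 0.5, LPS against control, of the 8 sensors and effectors and of tested genes in 7 lists of other pathway genes; each point is a gene, purple marks an unadjusted p under 0.05 and vertical bars are medians. The members' median is 0.52, while the medians of the other lists lie between −0.08 and 0.13; OAS2 and OAS3 stand at the right edge.

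Over the 6 libraries, the genes whose log2 levels most resembled the mean standardised level of the 8 were sought among 11189 other genes with a mean of at least 1 FPKM. The closest were the kinase gene PDK2 (Pearson r = 0.995), the growth factor CSF3 (0.987), the chemokine CXCL1 (0.983), PLBD2 (0.982) and the interferon-induced gene IFIT3 (0.977). With 6 libraries in 2 groups such values describe a shared order of libraries only, and 34 of the genes had an r over 0.95. CXCL1 stood at 16.2, 16.0 and 17.7 FPKM in the controls, against 60.9, 29.3 and 27.3 FPKM after LPS. IFIT3 stood at 2.31, 2.48 and 2.55 FPKM in the controls, against 7.74, 4.41 and 4.23 FPKM after LPS. In all 5 genes LPS 1 was the highest library and the groups did not overlap. This largely follows from picking them by likeness to the 8 genes, so it is no separate result.

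Summed FPKM over protein-coding genes lay between 256047 and 264878 per library, and the read depth is unknown. Marker lists were read against 5.13% of all tested genes higher and 5.26% lower at an unadjusted p under 0.05, and no marker passed the adjusted threshold by limma. All 12 endothelial markers were tested, and their sum was 379 to 497 FPKM in controls and 443 to 585 FPKM with LPS. At an unadjusted p under 0.05, 2 of these 12 were higher (TEK and ROBO4) and 1 was lower (EMCN, 1.42 ± 0.285 FPKM in controls and 0.394 ± 0.213 FPKM with LPS), and VWF was the most abundant at 108 to 168 FPKM. Fibroblast and smooth muscle markers had far higher sums than the endothelial ones (3951 to 4293 and 3781 to 4316 FPKM), with COL1A1 at 1277 to 1565 FPKM and DES at 0 to 0.165 FPKM. Of the 9 tested, 2 were lower (LUM and PDGFRA) and 0 higher at that level, and 3 of the 9 log2 changes were positive. The labels name only EA.hy926 and umbilical vein endothelial cells, and the source of this collagen RNA was not tested. Epithelial and A549 markers summed to 143 to 150 FPKM in controls and 101 to 124 FPKM with LPS. Of 6 tested among 12, 5 were lower and 0 higher at that level, with KRT18 the most abundant (58.9 ± 5.88 and 41.4 ± 9.04 FPKM) and NKX2-1 and SFTPC listed at 0 throughout. The other tested marker, KRT7, was higher with LPS without overlap, at 17.0 ± 0.935 and 23.8 ± 7.54 FPKM (limma adjusted p = 0.503). Leukocyte markers summed to 8.22 to 14.3 and 12.3 to 17.5 FPKM, and PTPRC, CD3E, FCGR3A and CD163 were listed at 0 in all 6 libraries. Of the 3 tested, 1 was higher (LAPTM5) and 0 lower at that level. LAPTM5 stood at 5.16 ± 1.21 FPKM in controls and 8.53 ± 1.60 FPKM with LPS, without overlap. The others tested had negative log2 changes, CD68 (−0.19, groups overlapping) and CD14 (−0.49, lower with LPS without overlap). The part of these marker differences in the values of the 8 genes was not tested, and in bulk RNA fewer cells of a type and less RNA per cell cannot be told apart.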

How the data were processed

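Per the submitters' processing notes, the authors used HISAT2 and StringTie (versions not given in the sources used here). The deposited tables hold FPKM for genes and transcripts, calculated by the authors. The notes name the mouse build mm9, but rows carry human Ensembl identifiers, and all 8 genes were found in GENCODE 29 (GRCh38), 3 with the same start and end. No read counts or strandedness were used here. FPKM tables carry no depth, so precision rests on the 3 libraries per group.

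The limma package (3.58.1, R 4.3.3) was run on log2(FPKM + 0.5) of features averaging 0.5 FPKM or more (group alone, eBayes with trend, two-sided, Benjamini-Hochberg within each table, threshold 0.05). The procedure was tested on simulated data. The 8 genes, lists and tests were chosen with earlier results of these data known, and the GAAANGAAA motif after its sequence was seen. Named were all 8 genes, their tested transcripts, the 3 smallest unadjusted p under 0.05 and the most abundant gene of each list, the extremes of marker lists and the 5 most alike genes. TRIM25, RNF135, TBK1, RIPK1, LUM, PDGFRA, TEK, ROBO4, CD68, CD14, OASL, DDX60L and the markers listed at 0 were added after values were seen. So were EIF2AK2-206, the assembled transcript and the interferon ligands. Alternatives covered pseudocount, filter, scaling, replicate block, robust eBayes, library weights and each library left out. Tables beyond protein-coding genes and transcripts gave levels only.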

Additional observations from a re-analysis of the deposited data

How the results depend on the processing

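In all 15 alternatives the 8 log2 changes were positive, while the median over all tested genes lay between −0.038 and 0.011. In each, 0 of the 8 genes, 0 of their transcripts and 0 of the other pathway genes passed the adjusted threshold. DDX58, DDX60 and MAVS were at an unadjusted p under 0.05 by limma in every alternative. The adjusted p of MAVS ranged from 0.161 to 0.421. With library weights 7 of the 8 genes were at an unadjusted p under 0.05, beside 11.1% of all tested genes in either direction. When each library was left out 3 to 5 were, beside 7.59% to 10.1%. The tested transcripts of the 8 genes numbered 6 at that level, 3 with the replicate block and 2 to 4 when each library was left out. The count of all protein-coding genes past the adjusted threshold was 7, it was 0 without a filter on low values (1668 genes at an unadjusted p under 0.05) and 0 with the replicate block (1451 genes), and leaving libraries out in turn gave 0 to 8 (0 without control 2 or LPS 2, 2 without LPS 3, 4 without control 1). The cause of these shifts was not tested. Replicate numbers were not used as pairs in the main fit. Deviations of same-numbered libraries from their group means correlated weakly across genes, at 0.0175, 0.105 and 0.0605. Differently numbered libraries correlated at −0.0840 to 0.0228. Controls 2 and 3 correlated best with the LPS library of their own number, and control 1 with LPS 3 (0.0228). These values do not settle whether same-numbered libraries belong together. With the block 4 of the 8 genes were at an unadjusted p under 0.05, beside 12% of all tested genes. Depth is unknown, so no floor can be given for values listed at 0.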
